A study of Mus musculus with 10 samples.

Results

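The genes described here are those that copy DNA in S phase, the stage of the cell cycle between the growth phase G1 and the gap before mitosis. They were taken by name from a list of 41 replication genes, with no threshold on their levels or changes. Earlier results of these data were known when the list was chosen. Of the 41, 39 had a locus with status OK (tested by the authors) in both deposited tables. Cdt1 and Gins2 were not analysed here. The 39 genes stand among 10583 loci with status OK in both tables. RNA-Seq had been run on keratinocytes that were isolated from the skin of FVB/N mice on postnatal day 4 and separated by FACS into a basal and a suprabasal population. Each population had 3 samples from wild type mice and 2 from bitransgenic mice. The bitransgenic (BT) mice model Hutchinson-Gilford progeria (HGPS), a premature ageing disease caused by progerin, a truncated form of lamin A. The labels name neither the transgenes nor the promoter and cell type that drive them. Sample titles share 6 stems, of which 3 wild type and 1 bitransgenic occur for both layers. What a stem stands for, such as a mouse or a litter, is not stated.

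The authors deposited 1 pooled level per genotype and layer, read here as FPKM (fragments scaled by transcript length and library size). A level therefore carries no error of its own, the depth of the samples is unknown, and the spread between replicates enters only through the authors' own p and q (adjusted p). A gene was called when the authors' q was under 0.05. The ± beside a log2 fold change (bitransgenic over wild type) is the standard error (SE) implied by that change and the authors' p. The locus of Xist, the X-inactivation RNA of female cells, was at 0.258 FPKM in basal wild type, 108 in basal bitransgenic, 0.236 in suprabasal wild type and 103 in suprabasal bitransgenic cells. In every genotype comparison below, sex and genotype therefore cannot be told apart. Over all loci the median level was 12.7 FPKM in basal wild type, 11.3 in basal bitransgenic, 12.4 in suprabasal wild type and 11.7 in suprabasal bitransgenic cells.

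As background, replication starts with licensing, in which the origin recognition complex and Cdc6 load the ring of MCM2 to MCM7 proteins onto DNA in G1. At S phase entry, cyclin E with its kinase and a set of activating factors turn this ring into a working helicase. DNA polymerases with primase then build the new strands, held on the template by the sliding clamp PCNA, while RPA coats single strands and enzymes of nucleotide synthesis supply the building blocks. Many of these genes are known targets of E2F factors, which bind promoter elements and are held back by RB family proteins in resting cells. In the epidermis, cells divide mainly in the basal layer, attached to the basement membrane, and leave the cell cycle as they move up and differentiate.

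The promoters of the genes are shown first, because many of them hold the E2F motif that recurs in the results below. Promoters of 250 bases before to 50 bases after the gene start were taken from RefSeq (GRCm38.p6, the same assembly as mm10), and 33 of the 39 genes had one. The motif was searched as TTTCCCGC, TTTGGCGC, TTTCGCGC and TTTGCCGC on both strands, with overlapping matches allowed. It was found in 13 of the 33 promoters (39.4%), beside 5.01% of the promoters of 7604 measured genes and 9.09% of those of 33 mitosis genes. A window around 1 match per gene is printed here 5′ to 3′ on the strand of the gene, with motif matches in capitals.
Mcm3, chr1:20820276-20820303, minus strand: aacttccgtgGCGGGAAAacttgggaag
Mcm5, chr8:75109346-75109377, plus strand: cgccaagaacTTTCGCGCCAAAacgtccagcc
Mcm6, chr1:128359794-128359825, minus strand: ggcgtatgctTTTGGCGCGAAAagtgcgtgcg
Mcm7, chr5:138171850-138171877, minus strand: ggtgacgacgTTTCGCGCcaatttcggt
Orc1, chr4:108579417-108579444, plus strand: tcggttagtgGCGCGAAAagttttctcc
Cdc6, chr11:98908003-98908030, plus strand: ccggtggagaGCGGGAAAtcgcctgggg
Gins3, chr8:95633508-95633535, plus strand: cgagtgcggcGCGGGAAAgcgagtttga
Pola1, chrX:93632276-93632303, minus strand: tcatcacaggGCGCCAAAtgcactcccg
Pold1, chr7:44548766-44548786, minus strand: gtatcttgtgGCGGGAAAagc
Pole2, chr12:69228163-69228190, minus strand: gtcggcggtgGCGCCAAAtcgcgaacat
Rfc3, chr5:151651191-151651218, minus strand: TTTCGCGCtcGCGGGAAAactctactgt
Lig1, chr7:13278842-13278869, plus strand: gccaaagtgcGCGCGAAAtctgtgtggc
Uhrf1, chr17:56304118-56304145, plus strand: ccgagtcgggTTTCGCGCgcccaggcgt

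In Mcm5 and Mcm6 the match is 12 letters long, because motifs on both strands overlap there. In Mcm6 a further match lies 47 bases before the gene start, downstream of the 12-letter match at 110 bases before it. The whole Mcm6 promoter, which carries both, is printed as the example with the most matches.
Mcm6 promoter, chr1:128359656-128359955, minus strand: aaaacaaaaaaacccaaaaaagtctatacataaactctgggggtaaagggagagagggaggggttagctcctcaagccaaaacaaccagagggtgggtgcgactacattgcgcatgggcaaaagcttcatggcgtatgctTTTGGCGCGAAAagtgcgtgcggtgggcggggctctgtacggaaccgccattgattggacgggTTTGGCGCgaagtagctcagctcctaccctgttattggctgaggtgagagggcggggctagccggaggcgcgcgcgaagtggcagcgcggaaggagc

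By role, the motif was found in 4 of 5 MCM helicase promoters and in 0 of 5 promoters of the nucleotide supply genes. The CCAAT box, bound by NF-Y, was searched as CCAAT on both strands and found in 21 of the 33 promoters (63.6%), beside 42.6% of measured genes and 78.8% of the 33 mitosis genes. The CHR element of late cell cycle genes, searched as TTTGAA on both strands, was found in 5 of the 33 (15.2%), beside 14.0% of measured genes, while 26 of 33 mitosis genes had it. A match describes letters in this window only, and no binding was measured.

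**Figure D1:**
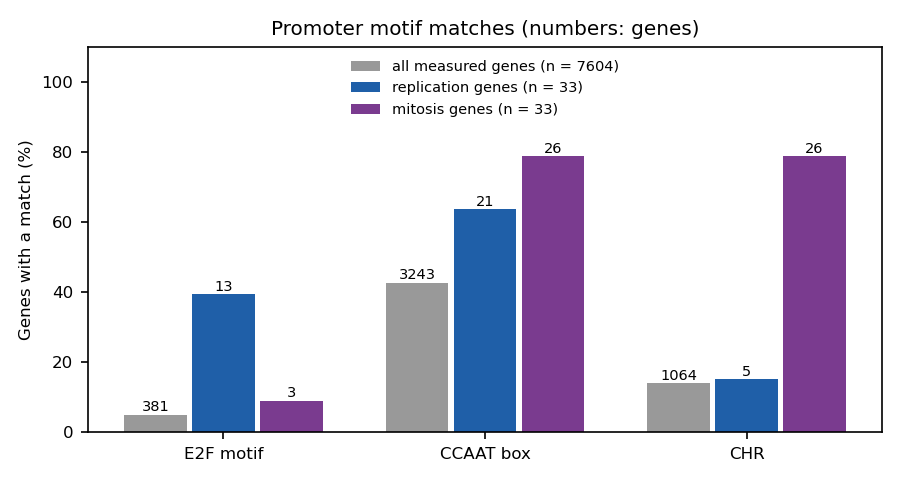
Share of promoters (percent) with an E2F motif, CCAAT box or CHR among 7604 measured genes, 33 replication genes and 33 mitosis genes, with the number of genes above each bar. The replication genes have the tallest E2F bar (13 genes) and the mitosis genes the tallest CHR bar (26 genes).

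In wild type skin, 36 of the 39 replication genes had a higher level in basal than in suprabasal cells, beside 52.8% of all loci. The basal level was at least 2-fold higher for 18 of the 39, beside 6.88% of all loci, and none was at least 2-fold higher in suprabasal cells. The median wild type ratio was 1.83-fold, or 0.87 on the log2 scale, where the median of all loci was 0.04. Rfc5, Pole and Rfc3 were the 3 genes with the lower basal level, with ratios of 0.900, 0.925 and 0.986. These ratios have no test, since each group is 1 pooled value and normalization was done separately for each layer. In sorted pools, fewer cycling cells and less of these RNAs per cell cannot be told apart. The suprabasal pools also held RNA of melanocytes. Their marker Dct had 1122 FPKM in suprabasal and 4.00 FPKM in basal wild type cells. The part of these cells in the layer ratios was not tested.

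In bitransgenic skin the same direction was seen for 34 of the 39 genes, beside 51.6% of all loci, with a median ratio of 1.57-fold (0.65 on the log2 scale, all loci 0.03). The basal level was at least 2-fold higher for 7 of the 39, beside 8.49% of all loci. Of the genes past 2-fold, 6 were so in both genotypes, 12 in wild type but not in bitransgenic cells, and Mcm6 in bitransgenic but not in wild type cells. The same split was not counted over all loci. The gap between 18 and 7 genes depends on the fold used, since at 1.5-fold the counts were 23 in wild type and 22 in bitransgenic cells, beside 17.0% and 20.4% of all loci. The layers are also matched differently, since 3 wild type title stems but only 1 bitransgenic stem occur for both layers. The ratio was smaller in bitransgenic cells for 21 of the 39 genes, beside 5218 of all 10583 loci, a similar share. Whether a ratio differs between genotypes is the same question as whether the genotype effect differs between layers, whose test is given after the single genes. Some of the keratinocyte markers listed for each layer also differed between genotypes. The summed level of 8 basal marker loci was 18710 FPKM in basal wild type, 11988 in basal bitransgenic, 8657 in suprabasal wild type and 4679 in suprabasal bitransgenic cells. Most of that sum came from mixed keratin loci. The Krt5 locus also names Krt2, Krt6b, Krt72, Krt76 and Krt8, and had 11677, 6923, 5147 and 2591 FPKM in the same order. The Krt14 locus also names Krt16, and had 4375, 3926, 1994 and 1534 FPKM. The summed level of 10 suprabasal marker loci was 8627, 10750, 18631 and 14061 FPKM in the same order, and their median log2 basal over suprabasal ratio was -1.22 in wild type and -0.68 in bitransgenic cells. Of these markers, the keratin Krt15 was called lower in bitransgenic cells in both layers, and in basal cells the desmosomal cadherin Dsc1 was called higher and the envelope protein Lor lower. The other listed keratinocyte marker loci were not called in either layer. Of the 10 suprabasal marker loci, 1 was higher in basal than in suprabasal cells in wild type and 3 were so in bitransgenic cells. Tgm3 was so in both genotypes, by 2.13-fold in wild type and 2.38-fold in bitransgenic cells. Krt1 and the Dsg1a locus, which also names Dsg1c, were so in bitransgenic cells only, by 1.08-fold and 1.52-fold. The part of these marker values in the layer ratios was not tested.

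**Figure D2:**
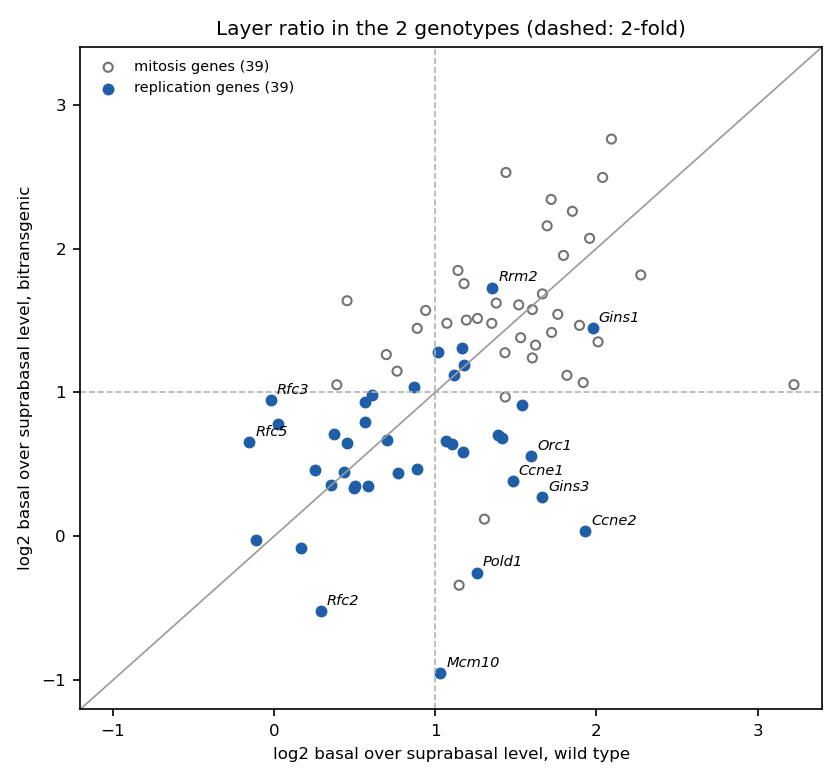
Log2 basal over suprabasal level in wild type (x axis) and bitransgenic cells (y axis), 1 point per gene, for 39 replication genes (filled) and 39 mitosis genes (open), with dashed lines at 2-fold and a diagonal of equal ratios. Most points of both sets lie above 0 on both axes, and Mcm10 lies lowest, at 1.03 in wild type and -0.95 in bitransgenic cells.

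The MCM2 to MCM7 ring, the core of the helicase, was among the more abundant sets. Mcm4 had 49.4 FPKM in basal wild type, 60.4 in basal bitransgenic, 33.4 in suprabasal wild type and 34.8 in suprabasal bitransgenic cells. Mcm6 had 38.2, 42.4, 20.9 and 20.7 FPKM in the same order, and Mcm5 had 35.0, 37.6, 23.4 and 29.5 FPKM. All 6 subunits were higher in basal cells in both genotypes, by a median of 0.64 (log2) in wild type and 0.57 in bitransgenic cells. Mcm3 had 30.8 FPKM in basal wild type, 34.6 in basal bitransgenic, 16.6 in suprabasal wild type and 24.98 in suprabasal bitransgenic cells. Mcm2 had 28.4, 27.6, 20.1 and 21.7 FPKM, and Mcm7 had 23.1, 21.4, 14.3 and 13.5 FPKM. The genotypes lay close together within each layer, since basal log2 fold changes ran from -0.11 to 0.29 and suprabasal ones from -0.08 to 0.59. In basal cells the implied SE of the subunits other than Mcm7 was 0.26 to 0.28, beside a median of 0.44 over the 39 genes. For all 6 subunits the 95% interval from the implied SE spanned 0 in both layers, so no sign is settled. Centring the fold changes on the median locus also turned Mcm2 in basal, Mcm6 in suprabasal and Mcm7 in both layers.

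The licensing factors load that ring. Orc1, the largest subunit of the origin recognition complex, had 5.26 FPKM in basal wild type, 5.06 in basal bitransgenic, 1.74 in suprabasal wild type and 3.44 in suprabasal bitransgenic cells. Cdc6, the loading ATPase, had 4.44, 4.64, 1.69 and 2.84 FPKM. Both were low in all groups and lowest in suprabasal wild type cells, with wild type ratios of 3.02-fold and 2.62-fold. Orc6, the smallest subunit, had 10.7, 11.04, 7.84 and 7.03 FPKM. The basal genotype effects of the 3 factors lay between -0.06 and 0.06 on the log2 scale, and those in suprabasal cells were 0.98 ± 0.78 for Orc1, 0.75 ± 0.72 for Cdc6 and -0.16 ± 0.56 for Orc6.

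The activating factors had 4 of 4 genes at least 2-fold higher in wild type basal cells. Gins1, a subunit of the GINS complex of the working helicase, had 23.5 FPKM in basal wild type, 11.4 in basal bitransgenic, 5.98 in suprabasal wild type and 4.18 in suprabasal bitransgenic cells. Its wild type ratio of 3.94-fold was the highest of the 39 genes, and its basal log2 fold change of -1.05 ± 0.59 did not pass the authors' test (p = 0.0764, q = 0.466). Gins3, another GINS subunit, had 3.65, 2.92, 1.16 and 2.42 FPKM, the lowest level of the 39 genes in each group. Cdc45, which joins GINS and the MCM ring, had 8.57, 11.3, 3.96 and 5.18 FPKM.

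Mcm10, a factor that helps activate the helicase, had the smallest suprabasal p of the 39 genes in the authors' table. It had 5.59 FPKM in basal wild type, 4.57 in basal bitransgenic, 2.74 in suprabasal wild type and 8.82 in suprabasal bitransgenic cells. The level was thus highest in suprabasal bitransgenic cells, the reverse of its order in wild type skin. Its suprabasal log2 fold change was 1.69 ± 0.72, with an authors' p of 0.0185 and q of 0.286, so it was not called. In basal cells the change was -0.29 ± 0.60. The locus lies at chr2:4989713-5012791 (mm10, minus strand) and its span holds no other protein-coding gene.

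Of the 8 genes of the polymerases and primase, 2 were higher and 6 lower in basal bitransgenic cells, beside 39.7% of all loci that were higher. Their median log2 fold change was -0.18, where that of all loci was -0.12, so the set lay near the background. Pold1, the catalytic subunit of DNA polymerase delta, had 28.9 FPKM in basal wild type, 11.5 in basal bitransgenic, 12.1 in suprabasal wild type and 13.6 in suprabasal bitransgenic cells. The basal wild type level was thus more than 2-fold above the other groups, which lay close together. Its basal log2 fold change of -1.33 ± 0.61 had the smallest basal p of the 39 genes in the authors' table (p = 0.0286) and was not called (q = 0.263). The locus lies at chr7:44532746-44549204 (mm10, minus strand).

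Pold2, the accessory subunit of polymerase delta, had 50.4 FPKM in basal wild type, 42.2 in basal bitransgenic, 22.3 in suprabasal wild type and 28.1 in suprabasal bitransgenic cells. Pola1, the catalytic subunit of polymerase alpha, had 26.9, 20.1, 10.1 and 12.5 FPKM. Pola1 is X-linked, and Xist differed between the pools in both layers. Prim1 and Prim2, the primase subunits, had 29.9, 34.7, 23.1 and 21.2 FPKM and 20.6, 18.3, 9.61 and 11.8 FPKM. Pola2, the other subunit of polymerase alpha, had 11.1, 9.69, 8.21 and 7.10 FPKM. Pole, the catalytic subunit of the leading strand polymerase epsilon, was almost flat, with 11.9, 11.6, 12.9 and 11.8 FPKM. Its partner Pole2 had 8.60, 8.83, 5.64 and 4.48 FPKM. No suprabasal fold change in this set exceeded 0.33 in size on the log2 scale.

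The clamp, its loader and RPA had the smallest median layer ratio of the sets in wild type skin, 0.21 on the log2 scale, and none of the 8 genes reached 2-fold. Pcna, the sliding clamp, was the most abundant of the 39 genes in every group, with 85.1 FPKM in basal wild type, 97.2 in basal bitransgenic, 57.4 in suprabasal wild type and 51.0 in suprabasal bitransgenic cells. Rfc1, the large subunit of the clamp loader, had 35.9, 37.5, 32.0 and 39.7 FPKM. Rfc3, a small subunit, had 21.3, 35.1, 21.6 and 18.2 FPKM. The basal bitransgenic level of Rfc3 was above the other groups, and its basal log2 fold change of 0.72 ± 0.44 did not pass the authors' test (p = 0.105). Rfc2 had 19.6, 15.9, 16.0 and 22.8 FPKM, and Rfc4 had 11.5, 13.9, 11.4 and 8.10 FPKM. Rfc5 had 7.96, 8.38, 8.85 and 5.32 FPKM. These loader subunits followed no common order of the groups. Rpa1, the large subunit of the single-strand binding complex RPA, had 28.0, 32.7, 21.9 and 25.5 FPKM, and Rpa2 had 13.1, 14.6, 10.9 and 10.6 FPKM. In basal cells 7 of the 8 genes were higher in bitransgenic cells (39.7% of all loci) and in suprabasal cells 3 of the 8 (43.4% of all loci), and none was called in either layer.

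Fen1, the flap nuclease that trims Okazaki fragments, had 17.2 FPKM in basal wild type, 14.6 in basal bitransgenic, 10.1 in suprabasal wild type and 10.8 in suprabasal bitransgenic cells. Lig1, the ligase that joins them, had 25.4, 30.4, 18.0 and 24.03 FPKM. Both were higher in basal cells in each genotype, by less than 2-fold.

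The nucleotide supply set had all 5 genes at least 2-fold higher in wild type basal cells and 3 of 5 in bitransgenic ones. Rrm2, the S phase subunit of ribonucleotide reductase, had 57.3 FPKM in basal wild type, 47.5 in basal bitransgenic, 22.4 in suprabasal wild type and 14.3 in suprabasal bitransgenic cells. Its bitransgenic ratio of 3.32-fold was the highest of the 39 genes in that genotype. Rrm1, the large subunit, had 51.4, 55.5, 22.9 and 22.4 FPKM, and Dut, which keeps dUTP out of DNA, had 43.0, 34.9, 14.8 and 18.5 FPKM. Tk1, the thymidine kinase of the salvage route, had 32.5, 27.7, 15.5 and 17.5 FPKM, and Tyms, thymidylate synthase, had 22.7, 23.8, 11.2 and 9.79 FPKM. The basal genotype effects ran from -0.30 to 0.11 and the suprabasal ones from -0.65 to 0.33 on the log2 scale, and none was called.

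Cyclin E drives S phase entry, and its genes showed the largest suprabasal genotype values. Ccne2 had 17.8 FPKM in basal wild type, 16.3 in basal bitransgenic, 4.65 in suprabasal wild type and 15.9 in suprabasal bitransgenic cells. Ccne1 had 5.08, 8.13, 1.82 and 6.23 FPKM. For both, the suprabasal wild type level was the lowest of the groups, and for Ccne2 the other groups lay close together. The suprabasal log2 fold changes were 1.78 ± 1.004 for Ccne2 (the authors' p = 0.0767, q = 0.622) and 1.78 ± 1.32 for Ccne1 (the authors' p = 0.180, q = 0.796). The span of the Ccne2 locus also holds the protein-coding gene Ints8. Uhrf1, which guides maintenance DNA methylation behind the fork, had 42.8, 54.6, 18.9 and 23.96 FPKM, with layer ratios of 2.26-fold in wild type and 2.28-fold in bitransgenic cells.

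**Figure D3:**
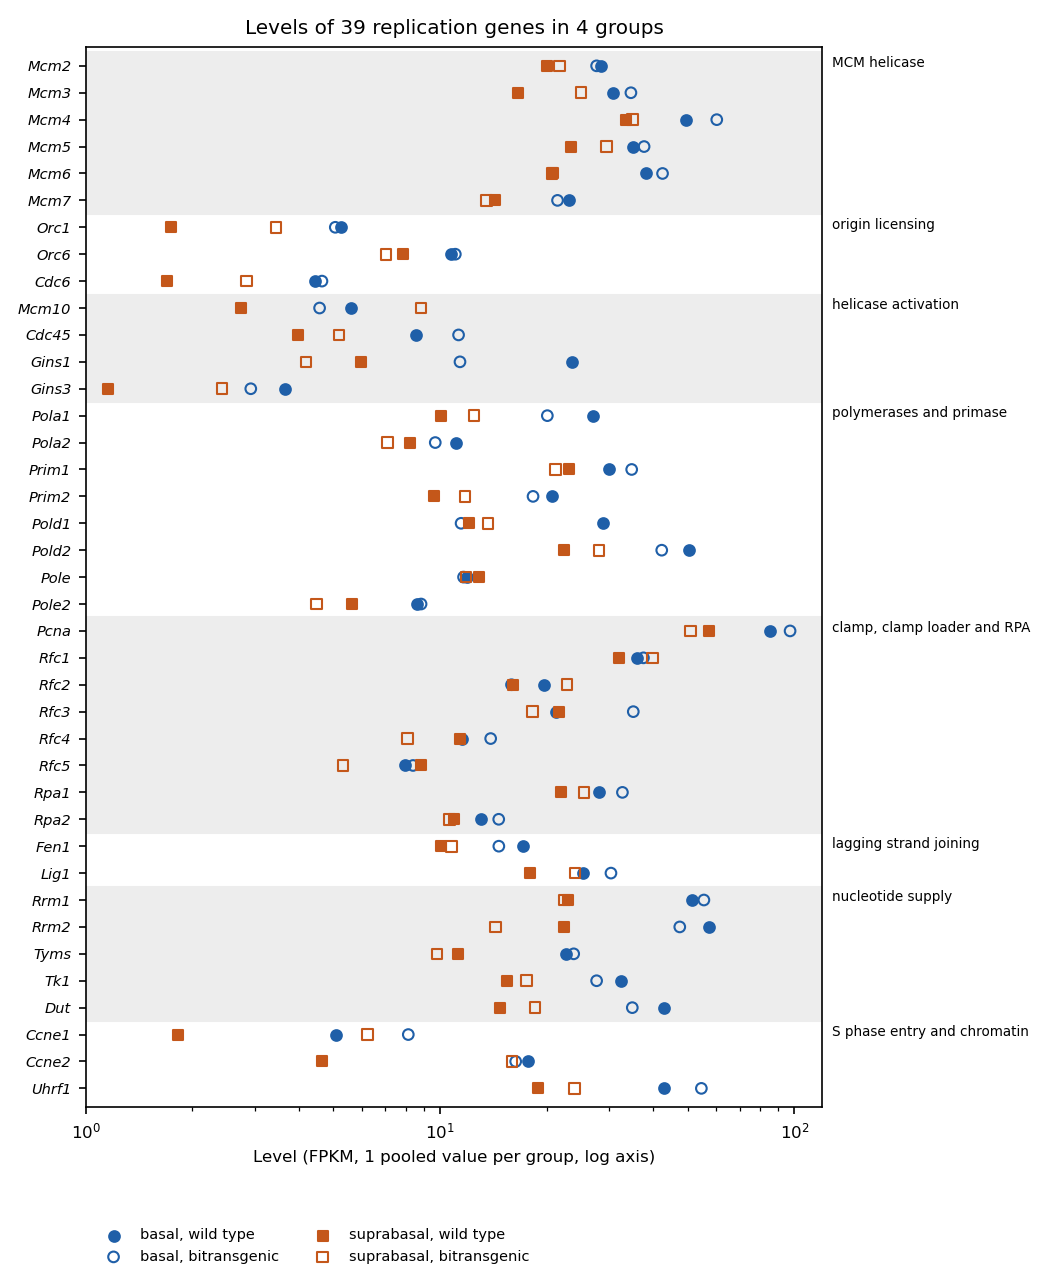
Level of each of the 39 genes (FPKM, log axis, 1 pooled value per group with no error) in basal (circles) and suprabasal (squares) cells, filled for wild type and open for bitransgenic, with shaded bands by role. Basal circles lie to the right of suprabasal squares for most genes, and Mcm10 has its suprabasal bitransgenic square (8.82 FPKM) to the right of its other symbols.

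Across the 39 genes, none was called between genotypes in basal cells, beside 1.65% of all loci. At an unadjusted authors' p under 0.05 there was 1 gene, Pold1, beside 7.68% of all loci. Levels were higher in bitransgenic cells for 21 genes and lower for 18, beside 39.7% of all loci that were higher. The median log2 fold change was 0.04, where that of all loci was -0.12, and 35 of the 39 lay within 0.5 of 0. For 19 of the 39 the 95% interval from the implied SE stayed within 2-fold in either direction, and for the other 20 it reached past 2-fold in at least 1 direction. The median implied SE was 0.44, beside 0.46 over all loci.

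In suprabasal cells none of the 39 was called either, beside 0.471% of all loci. Mcm10 was the 1 gene at an unadjusted authors' p under 0.05, beside 7.11% of all loci. Levels were higher in bitransgenic cells for 23 genes and lower for 16, beside 43.4% of all loci that were higher. The median log2 fold change was 0.18, where that of all loci was -0.08, and the median implied SE of 0.59 was larger than either. Only 6 of the 39 intervals stayed within 2-fold. Among the 10 genes whose mean over the groups was under 10 FPKM the median was 0.57, and among the other 29 it was 0.11. The same split of all loci gave -0.16 and -0.07. The share of genes higher in bitransgenic cells was 60% among the 10 and 58.6% among the 29, and their median implied SEs were 0.72 and 0.46. The suprabasal sort also held pigment cell RNA, with 7 of 7 melanocyte markers tested and a summed level of 2045 FPKM in wild type and 3788 FPKM in bitransgenic cells, while 3 of 7 were tested in basal cells, summing to 8.38 and 12.9 FPKM. Fibroblast markers in suprabasal cells had 4 of 6 tested and summed to 18.4 and 29.0 FPKM, 1 of 5 leukocyte markers was tested, and no endothelial marker was. The part of these cells in the suprabasal values was not tested.

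**Figure D4:**
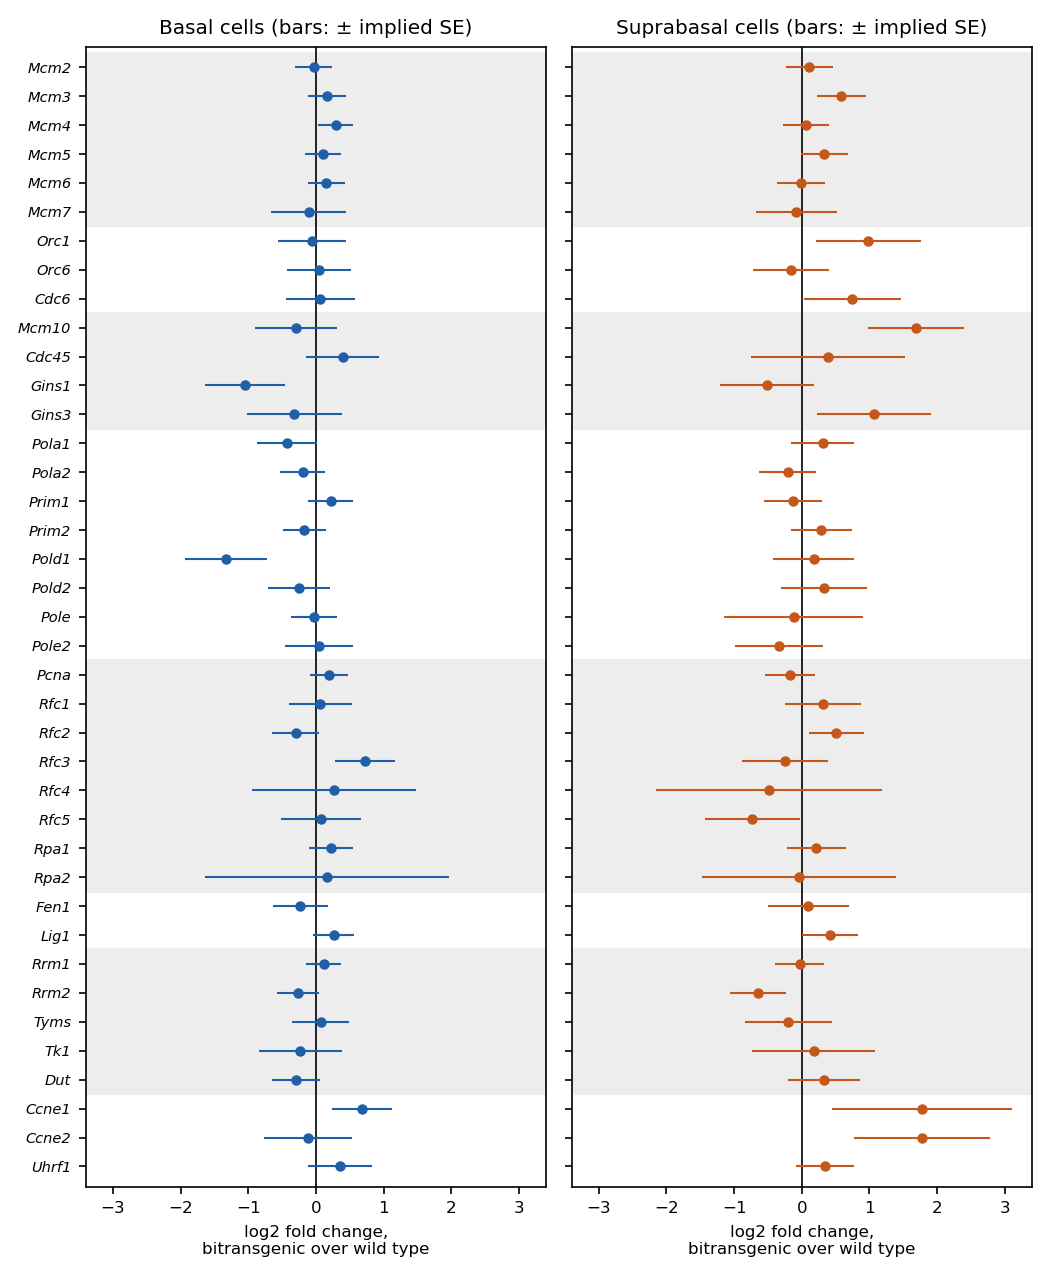
Log2 fold change of bitransgenic over wild type for each of the 39 genes in basal (left) and suprabasal (right) cells, with bars of 1 implied SE and shaded bands by role. Most bars cross 0, and the points farthest from 0 are Pold1 and Gins1 on the left and Ccne2, Ccne1 and Mcm10 on the right.

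The difference of the genotype effect between layers was tested with a Wald z-test (two-sided) of the suprabasal log2 fold change minus the basal one. After Benjamini-Hochberg adjustment over all shared loci none of the 39 genes passed, beside 0.0378% of all loci. At an unadjusted p under 0.05 there was 1 gene, Mcm10, beside 3.08% of all loci. The difference for Mcm10 was 1.98 ± 0.94, with p = 0.0346 from the authors' values and an adjusted p of 1, and with SEs taken from the deposited test statistic no gene had an unadjusted p under 0.05. The next largest differences were those of Ccne2, 1.90 ± 1.19, and Pold1, 1.51 ± 0.85. In sign, 10 genes were higher in bitransgenic cells in both layers, 5 lower in both, 13 lower in basal and higher in suprabasal cells, and 11 the opposite. Independence of the layers was assumed in this test, while 4 of the title stems recur in both.

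The layer difference of the replication genes was set beside that of 39 genes of mitosis (kinetochore, spindle and cytokinesis genes), which act later in the same cycle. Of the mitosis genes 39 were higher in wild type basal cells and 33 at least 2-fold so, with a median log2 ratio of 1.53 beside 0.87 for the replication genes. In bitransgenic cells 36 of the 39 mitosis genes were at least 2-fold higher in basal cells, beside 7 of the 39 replication genes. Mki67, a marker of cycling cells, had 78.2 FPKM in basal wild type, 93.8 in basal bitransgenic, 25.7 in suprabasal wild type and 31.5 in suprabasal bitransgenic cells, a ratio of 3.04-fold and 2.98-fold. The summed level of 4 markers of dividing cells (Mki67, Top2a, Cdk1 and Ccnb1) was 271 FPKM in basal wild type, 367 in basal bitransgenic, 95.1 in suprabasal wild type and 131 in suprabasal bitransgenic cells. These markers did not move together in basal cells, where Cdk1, the mitotic kinase, had 90.7 FPKM in the wild type and 64.7 FPKM in the bitransgenic pool, and Ccnb1, its cyclin, had 18.6 and 13.3 FPKM. In suprabasal cells Cdk1 had 36.7 and 59.6 FPKM, and Ccnb1 had 1.99 and 6.39 FPKM. Among mitosis genes Top2a, the topoisomerase that untangles sister chromatids, was called higher in basal bitransgenic cells (83.2 to 196 FPKM). Its log2 fold change was 1.23 ± 0.30, and its authors' q of 0.00858 was the smallest of the basal loci. Ect2, a regulator of cytokinesis, was called lower in basal bitransgenic cells (32.0 to 16.0 FPKM, -1.002 ± 0.34, authors' q = 0.0493).

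**Figure D5:**
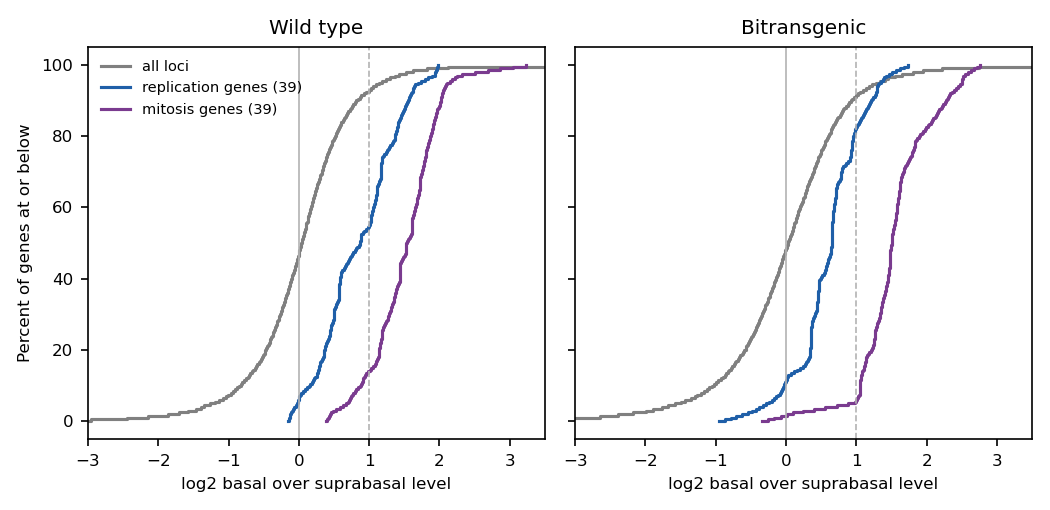
Cumulative share of genes (percent) by log2 basal over suprabasal level in wild type (left) and bitransgenic cells (right) for all 10583 loci, 39 replication genes and 39 mitosis genes, with a dashed line at 2-fold. The replication genes lie between all loci and the mitosis genes in both genotypes, with medians of 0.87 and 0.65.

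Other genes of the replication machinery and its upstream control had smaller layer ratios. Of 42 further replication genes found in both tables, 32 were higher in wild type basal cells, beside 52.8% of all loci. Of the 42, 10 were at least 2-fold higher, beside 6.88% of all loci, and the median log2 ratio was 0.52. None was called between genotypes, where 1.65% of all loci were called in basal and 0.471% in suprabasal cells. Of 29 loci of regulators of the G1 to S transition found in both tables, 21 were higher in wild type basal cells and 7 at least 2-fold so. None was called, and the same shares of all loci apply. In basal cells, where E2f3 had a further locus, 8 of 30 regulator loci were higher in bitransgenic cells, beside 39.7% of all loci, and their median log2 fold change was -0.21, beside -0.12. E2f1, a factor that switches on replication genes, lies in a locus shared with Necab3 that had 11.4 FPKM in basal wild type, 6.07 in basal bitransgenic, 5.91 in suprabasal wild type and 4.12 in suprabasal bitransgenic cells, and its basal change of -0.91 ± 0.36 was not called (authors' q = 0.121). E2f7 and E2f8, repressors of the same genes, had 14.6, 12.9, 6.73 and 6.15 FPKM and 15.0, 12.6, 6.46 and 9.24 FPKM. The remaining E2F genes, E2f2 to E2f6, lay between 2.51 and 36.6 FPKM. Of these, the E2f3 locus found in both tables had 2.98, 10.1, 8.20 and 2.84 FPKM in the same order. Its log2 fold changes of 1.76 ± 0.996 in basal and -1.53 ± 1.04 in suprabasal cells were not called (authors' q = 0.466 and 0.763). The further basal locus of E2f3 had a change of -0.25. Among the RB family, Rbl1 was higher in basal cells, with 20.8, 19.2, 7.54 and 9.08 FPKM. Rb1 was lower there, with 9.11, 8.13, 12.0 and 10.7 FPKM, as was Rbl2, with 10.2, 10.1, 13.6 and 20.0 FPKM.

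The layer ratios of genes with and without the E2F match were set side by side, without a test. The 13 genes with an E2F match had a median wild type log2 ratio of 0.89, with 6 of them at least 2-fold higher in basal cells, and the 20 without one had 0.67, with 9 at least 2-fold. The 6 genes with no promoter to search had 0.83, with 3 at least 2-fold. Wild type ratios ran from 0.986-fold (Rfc3) to 3.16-fold (Gins3) with a match. Without one they ran from 0.900-fold (Rfc5) to 2.91-fold (Dut). A gene without a match lacks only the searched letters in this window, and the part of the motif in the ratios was not tested.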

How the data were processed

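Reads were processed by the authors, with TopHat and Cufflinks on the mm10 build, per the submitters' processing notes, which give no versions. Libraries were strand-specific, per the labels. The authors deposited 1 table per layer in the form of Cuffdiff output, with 1 group level per genotype. The deposited levels have no unit in the header and were taken as FPKM, the unit Cuffdiff writes. The deposited log2 fold change, test statistic (a score), p-value and q-value are the authors' own. Status OK was given to 11290 of 11316 basal and 11464 of 11490 suprabasal loci, and the 26 others of each were left out.

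Fold changes recomputed from the levels matched the deposited ones to within 4.13e-05. To obtain an SE, the size of a change was divided by the normal quantile (two-sided) that its p-value in the authors' table stands for. The smallest p of the authors' test was 5e-05 in both layers. If that value is a floor, the implied SE of a locus at it, such as Top2a in basal cells, is an upper limit. The layer difference was tested by a Wald z-test with Benjamini-Hochberg adjustment over 10583 loci, and the code was tested on simulated data. Computation used Python 3.11.15, pandas 2.3.3, numpy 2.4.6 and scipy 1.17.1, with matplotlib 3.10.9 for figures. Neighbouring genes came from GENCODE M21.

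P-values cover only the spread the authors' test saw between samples, which may be technical. The members, lists and tests were chosen with earlier results of these data known. Genes given in full include the smallest p, extreme ratios and levels, and the MCM, licensing and nucleotide sets. All 39 are printed. Alternatives were centring, pseudocounts of 1 and 5 FPKM, a minimum of 5 FPKM, other scaling of the layers, a fold of 1.5, and leaving out merged loci or members with overlapping neighbours.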

Additional observations from a re-analysis of the deposited data

How the results depend on the processing

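A count was taken as kept when it was unchanged or within 1.5-fold of its main value. A median was taken as kept when it moved by less than the median implied SE of the genes. That SE, 0.44 in basal and 0.59 in suprabasal cells, exceeded the genotype medians themselves, so the limit was wide. Leaving out merged loci removed no replication gene, so it could not change their medians. Under 48 alternatives of the counts and medians, 47 stayed within these limits. The exception was the number of genes at least 2-fold higher in bitransgenic basal cells, which was 22 in place of 7 at a fold of 1.5, where 20.4% of all loci passed. No alternative brought a replication gene past the threshold between genotypes or between layers. The median genotype effect ran from 0.01 to 0.15 in basal and from 0.11 to 0.26 in suprabasal cells. At 2-fold, the wild type count ran from 15 to 18 and the bitransgenic count from 6 to 8. Centring on the median locus, which lay at -0.11 in basal and -0.08 in suprabasal cells, turned 8 small fold changes positive. These became 0.0541 for Orc1, 0.0794 for Pole, 0.00145 for Mcm7 and 0.0737 for Mcm2 in basal cells, and 0.0650 for Mcm6, 0.0357 for Rpa2, 0.00103 for Mcm7 and 0.0460 for Rrm1 in suprabasal cells. Leaving out the 11 genes whose span holds another protein-coding gene, an alternative chosen after seeing the data, left 15 of 28 genes at 2-fold in wild type. No paired analysis was possible because each group is 1 pooled value, and for the same reason no sample could be left out in turn. The depth is unknown and limits the low genes most.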

Other observations

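Among the 39 replication genes, 11 lay in loci whose span holds another protein-coding gene (Tk1, Pole2, Cdc45, Rfc4, Fen1, Ccne2, Rpa2, Rfc5, Mcm7, Lig1 and Orc6). Their median implied SE was 0.55 in basal and 0.70 in suprabasal cells, and that of the other 28 was 0.35 and 0.46. The Rpa2 span holds 7 such genes and had the largest basal SE of the 39, at 1.80. The part of the neighbours in these errors was not tested.

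Some genes of the further replication and G1 to S lists had large suprabasal values without being called. Samhd1, which degrades deoxynucleotides, had 3.63 FPKM in wild type and 12.5 FPKM in bitransgenic suprabasal cells, a log2 fold change of 1.78 ± 0.69 (authors' q = 0.178). Slbp, which binds histone mRNA, had 33.9 FPKM in wild type and 12.4 FPKM in bitransgenic suprabasal cells, a change of -1.44 ± 0.52 (authors' q = 0.141). In the G1 to S list, Mybl2, an activator of late cell cycle genes, had 1.94 FPKM and 7.90 FPKM, a change of 2.03 ± 0.85 (authors' q = 0.267). These 3 were chosen after their values were seen.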
